A study of Mus musculus with 6 samples.

Results

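The genes described here are 10 genes of neutrophil granules and calprotectin, measured in bone marrow–derived macrophages (BMDMs) with and without Drp1. They were chosen by name, and the choice was made with the WT to Drp1 KO difference in these libraries known. That difference is therefore given for each of them as a description, with its error, and counts of calls among them appear only beside those of all genes. The 10 genes are S100a8, S100a9, Ngp, Ltf, Camp, Mpo, Elane, Prtn3, Mmp8 and Csf3r, of 36137 genes with a transcript in the deposited tables. At least 10 counts in total were required for a gene to be tested. This left 18506 genes and 9 of the 10, because Elane had 8 counts.

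The study asked how loss of Drp1, the GTPase that divides mitochondria, changes macrophages under ischemia. RNA was sequenced from 3 WT and 3 Drp1 KO libraries of BMDMs exposed for 8 hours to hypoxia with serum starvation (HSS), a culture model of ischemia. The WT mice were LysM-Cre+/- Drp1+/+ and the Drp1 KO mice LysM-Cre+/- Drp1 fl/fl, so both groups carried the Cre driven by the lysozyme M promoter. That promoter is active in macrophages and in neutrophils. Marrow of mice of 8 to 12 weeks was pooled per genotype and grown for 7 days in L929-conditioned medium, which supplies M-CSF, with floating cells washed away. The 3 libraries of each group are labelled as biological replicates. How the pools of marrow map to them was not stated, so part of the spread between libraries may be technical. No library without HSS was analysed here.

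Neutrophils store antimicrobial proteins in granules that are made one after the other as the cell matures in the marrow. Primary granules hold myeloperoxidase and serine proteases, and their genes are active in promyelocytes. Secondary and tertiary granules hold lactoferrin, cathelicidin and matrix metalloproteases, and their genes come on later, under C/EBPε. Calprotectin, the dimer of S100A8 and S100A9, fills the cytosol of mature neutrophils. Monocytes make it too and largely lose it as they become macrophages. Granule genes are commonly used to mark neutrophils and their precursors.

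The 6 libraries held 23389488 to 32231206 estimated reads, and 3 counts corresponded to 0.0917 to 0.136 CPM, the count scaled to the size of the library. Levels are given in CPM after TMM normalization, and levels are compared between genes only in TPM, which also divides by transcript length. Dnm1l, the gene that encodes Drp1, had 72.6 ± 2.61 CPM in WT and 61.9 ± 3.91 in Drp1 KO (SD, n = 3 each), without overlap. Its log2 fold change was -0.23 (SE 0.0921, edgeR adjusted p = 0.248, 0.0738 to 0.519 over the alternatives). Whether the floxed exon was missing from these transcripts was not tested. Libraries 1 of both groups deviated from their group means together (r = 0.539 across genes), compared with 0.218 for libraries 2 and 0.352 for libraries 3. Differences are therefore also given between libraries of the same number. In a bulk library, more cells of a type cannot be told apart from more RNA per cell.

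Macrophage genes were abundant in every library. Lyz2, encoding lysozyme M, had 9048 to 9887 CPM in WT and 8173 to 9961 in Drp1 KO, and Adgre1, encoding F4/80, had 1210 to 1587 and 1304 to 1446 CPM. Of the surface markers of mouse neutrophils, Ly6g had no count in any of the 6 libraries. Cxcr2, encoding a chemokine receptor of neutrophils, had 0.647, 0.825 and 1.16 CPM in WT and 0.772, 0.978 and 1.29 in Drp1 KO, and Cd177 had 2, 8 and 3 counts in WT and 5, 15 and 17 in Drp1 KO. These last 2 genes were named after their values were seen, and their groups overlapped.

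The 250 bases upstream of the annotated start are shown for 5 of the genes that shared their lowest library in each group, chosen after their values were seen, S100a8, S100a9, Ngp, Ltf and Camp. Mpo, on few counts, shared it too. The sequences were read from GRCm39, the build of the deposited tables, at the start of the GENCODE canonical transcript, 5′ to 3′ on the strand of the gene. Capitals mark a match to TTGCNNAA, a core recognised by C/EBP factors, or to GAGGAAG, a core recognised by PU.1, on either strand.
S100a8, chr3:90576035-90576284, plus strand: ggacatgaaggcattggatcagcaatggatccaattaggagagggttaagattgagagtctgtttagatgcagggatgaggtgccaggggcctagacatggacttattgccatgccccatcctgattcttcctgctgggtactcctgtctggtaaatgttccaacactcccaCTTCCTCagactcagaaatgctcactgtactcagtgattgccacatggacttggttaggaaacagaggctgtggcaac
S100a9, chr3:90603072-90603321, minus strand: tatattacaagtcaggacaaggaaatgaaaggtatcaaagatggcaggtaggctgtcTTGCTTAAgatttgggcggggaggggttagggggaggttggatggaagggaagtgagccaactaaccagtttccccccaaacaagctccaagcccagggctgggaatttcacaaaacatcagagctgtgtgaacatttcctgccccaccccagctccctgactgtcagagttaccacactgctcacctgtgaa
Ngp, chr9:110248565-110248814, plus strand: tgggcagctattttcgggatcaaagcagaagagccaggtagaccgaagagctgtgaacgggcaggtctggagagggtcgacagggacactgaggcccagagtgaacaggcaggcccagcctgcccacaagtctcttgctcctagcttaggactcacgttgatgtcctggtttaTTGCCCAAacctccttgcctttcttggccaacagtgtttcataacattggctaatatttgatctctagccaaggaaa
Ltf, chr9:110848089-110848338, plus strand: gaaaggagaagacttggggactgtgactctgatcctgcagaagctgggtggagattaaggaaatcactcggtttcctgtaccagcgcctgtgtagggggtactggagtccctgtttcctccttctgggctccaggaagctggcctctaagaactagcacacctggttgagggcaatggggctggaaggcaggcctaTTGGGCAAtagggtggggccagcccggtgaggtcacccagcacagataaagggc
Camp, chr9:109678686-109678935, minus strand: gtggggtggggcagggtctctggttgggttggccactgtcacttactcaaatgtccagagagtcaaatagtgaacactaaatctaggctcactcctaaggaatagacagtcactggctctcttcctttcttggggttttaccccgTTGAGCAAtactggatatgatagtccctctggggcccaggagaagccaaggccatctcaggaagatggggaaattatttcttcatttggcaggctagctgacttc

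The C/EBP letters lay from -193 to -186 before S100a9, -77 to -70 before Ngp, -54 to -47 before Ltf and -105 to -98 before Camp, counted back from the start. They also lay from -46 to -39 before Mmp8. In all, 5 of the 10 windows held them, compared with 9.36% of 21593 windows of protein-coding genes. The PU.1 letters lay from -78 to -72 before S100a8, and in the windows of Elane, Mmp8, Mpo and Prtn3, which is again 5 of 10, compared with 10.3% of all windows. The TATA letters TATAAA were in the Mmp8 window alone of the 10 (11.9% of all windows) and the interferon response letters GAAANNGAA in that of Mpo alone (7.54%). Nearly all of the few Mpo counts, however, were assigned to a transcript that starts downstream of this window, at 87685033 on chromosome 11. The Csf3r window held none of these letters. The matches in these windows do not overlap one another, and a match is a description of the sequence, not of binding.

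S100a8 and S100a9 encode the calprotectin subunits and lie 21803 bases apart in the S100 cluster of chromosome 3. S100a9 (ENSMUSG00000056071, GRCm39 chr3:90599931-90603071, minus strand) had 3.45, 10.2 and 12.1 CPM in WT libraries 1 to 3 and 10.9, 26.2 and 26.4 in Drp1 KO libraries 1 to 3. Drp1 KO library 1 lay inside the WT range and the other Drp1 KO libraries lay above it. S100a8 (ENSMUSG00000056054, chr3:90567118-90578128, plus strand) had 1.90, 3.22 and 3.85 CPM in WT and 2.91, 9.65 and 10.8 in Drp1 KO. Again library 1 was the lowest of each group, and Drp1 KO library 1 lay among the WT libraries. The fitted log2 fold changes were 1.30 (SE 0.418) for S100a9 and 1.38 (SE 0.423) for S100a8.

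Between libraries of the same number the calprotectin genes were higher in Drp1 KO in all 3 comparisons. The ratio of Drp1 KO to WT for S100a9 was 3.17 in libraries 1, 2.57 in libraries 2 and 2.18 in libraries 3. For S100a8 it was 1.53, 2.99 and 2.80. The S100a8 to S100a9 ratio of TPM ran from 0.287 to 0.590 over the 6 libraries, while the S100a9 TPM itself ran over a 7.35-fold range.

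Ngp, Ltf and Camp are genes of secondary granules, all on chromosome 9. Ngp, encoding neutrophilic granule protein, a relative of cathelicidin (ENSMUSG00000032484, chr9:110248815-110252086, plus strand), had 0.862, 3.22 and 2.49 CPM in WT and 4.09, 7.39 and 5.03 in Drp1 KO. Every Drp1 KO library lay above every WT library. Ltf, encoding the iron-binding protein lactoferrin (ENSMUSG00000032496, chr9:110848339-110871835, plus strand), had 0.517, 2.02 and 2.11 CPM in WT and 2.23, 4.12 and 3.22 in Drp1 KO. Its groups did not overlap either, but Drp1 KO library 1 was only just above WT library 3. The log2 fold changes were 1.32 (SE 0.388) for Ngp and 1.03 (SE 0.427) for Ltf.

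The lowest library for both genes was WT library 1, with 20 counts of Ngp and 12 of Ltf. The Drp1 KO to WT ratio was 4.74 for Ngp in libraries 1, 2.29 in libraries 2 and 2.02 in libraries 3, and for Ltf 4.30, 2.04 and 1.52. Without WT library 1 the log2 fold change was 0.95 for Ngp and 0.63 for Ltf. Camp, encoding the cathelicidin CRAMP (ENSMUSG00000038357, chr9:109676442-109678685, minus strand), had 0, 1 and 5 counts in WT and 1, 21 and 7 counts in Drp1 KO. Drp1 KO library 2 held most of its counts, and only the libraries 2 and 3 of Drp1 KO and library 3 of WT were above 3 counts. The summed counts, 6 in WT and 29 in Drp1 KO, gave a ratio of levels of 4.38 with an exact 95% interval of 1.79 to 12.9, which covers counting error only. Without Drp1 KO library 2 the log2 fold change of Camp was 0.88, compared with 2.02 (SE 1.05) with all libraries.

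S100a8, S100a9, Ngp, Ltf and Camp, grouped after their values were seen, shared their lowest library in each group. This was library 1 for each of these genes in WT and in Drp1 KO. Libraries 1 of both groups also deviated together across 12248 genes (r = 0.539). The share of all genes that were lowest in library 1 of each group was not counted. Mpo, on 2 to 17 counts a library, was also lowest in library 1 of each group. The summed level of the 5 genes was 6.73, 18.7 and 20.8 CPM in WT and 20.2, 48.0 and 45.7 in Drp1 KO, which gives ratios of 3.0, 2.57 and 2.20 between libraries of the same number. Drp1 KO library 1 was thus at the level of WT libraries 2 and 3 and far above WT library 1. Relative to S100a9 in TPM, Ngp ran from 0.0448 to 0.0907 over the 6 libraries, a 2.03-fold range. Ltf ran from 0.0437 to 0.107, a 2.45-fold range. The TPM of Ngp itself ran over an 8.15-fold range and that of Ltf over 5.85-fold. The Ltf TPM rested mostly on short transcripts with few estimated counts, so it is less certain than the gene count. Without libraries 1 of both groups the log2 fold change was 1.52 for S100a8, 1.23 for S100a9, 1.12 for Ngp, 0.82 for Ltf and 1.96 for Camp. With all libraries and the replicate number as a block it was 1.31 for S100a8, 1.35 for S100a9, 1.37 for Ngp, 1.09 for Ltf and 1.93 for Camp.

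**Figure D1:**
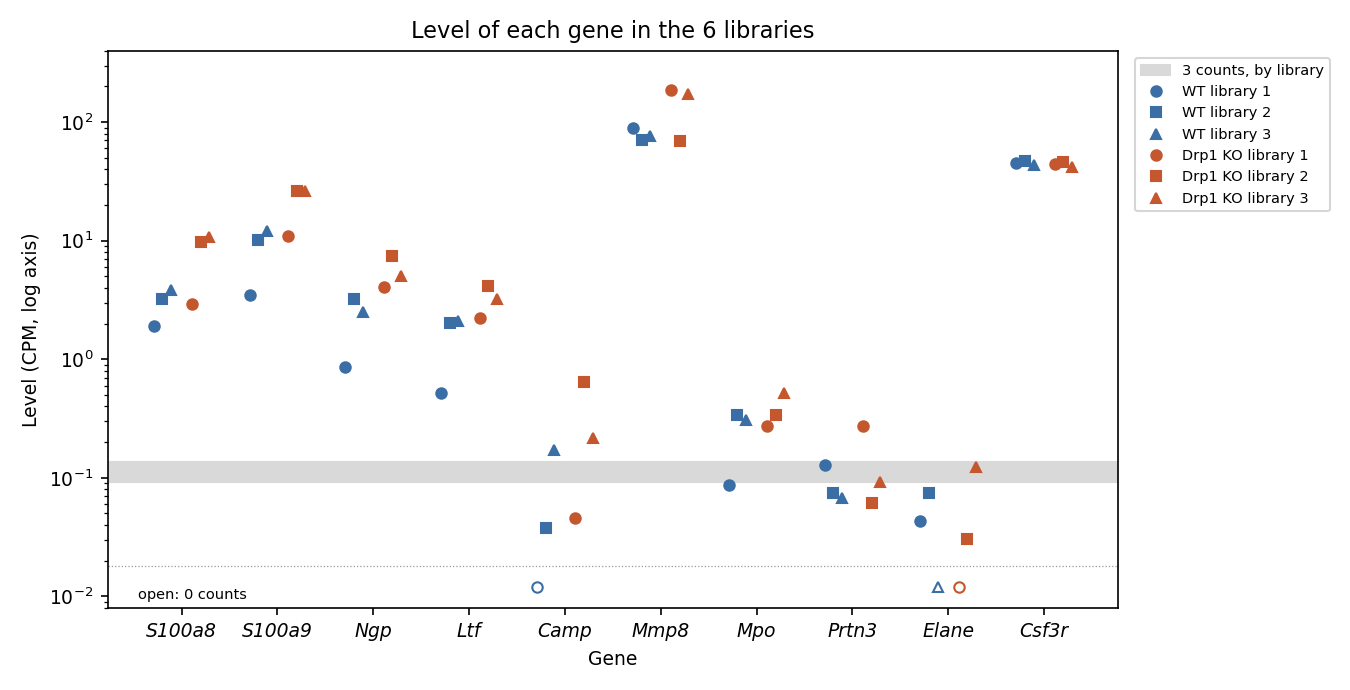
Level of each of the 10 genes in each library, in CPM on a log axis, with WT in blue, Drp1 KO in orange, the marker shape giving the library number, and open markers at the bottom for 0 counts. The grey band is the level of 3 counts. S100a8, S100a9, Ngp and Ltf are lowest in WT library 1, Mmp8 is high in Drp1 KO libraries 1 and 3, and Csf3r is level.

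Mmp8, encoding the neutrophil collagenase of secondary granules (ENSMUSG00000005800, chr9:7558457-7568487, plus strand), followed another order across libraries. It had 89.0, 70.4 and 76.3 CPM in WT and 186, 69.3 and 174 in Drp1 KO. Drp1 KO libraries 1 and 3 were above every WT library, and Drp1 KO library 2 was the lowest of the 6. The log2 fold change was 0.86 (SE 0.293), and the ratios between libraries of the same number were 2.09, 0.98 and 2.28. The Mmp8 to S100a9 ratio of TPM ran from 0.344 in Drp1 KO library 2 to 3.28 in WT library 1, a 9.53-fold range, which is wider than the 2.62-fold range of the Mmp8 TPM itself. The Pearson r of Mmp8 with the mean calprotectin profile, over 6 libraries on the log2(CPM + 0.5) scale, was 0.152. It was 0.895 for Ngp, 0.930 for Ltf, 0.817 for Camp and 0.873 for Mpo, and it was 0.368 for Elane, -0.384 for Prtn3 and -0.415 for Csf3r, and all of these share the libraries' depth and scaling. Without libraries 1 of both groups the log2 fold change of Mmp8 was 0.73, and with the replicate block 0.75.

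**Figure D2:**
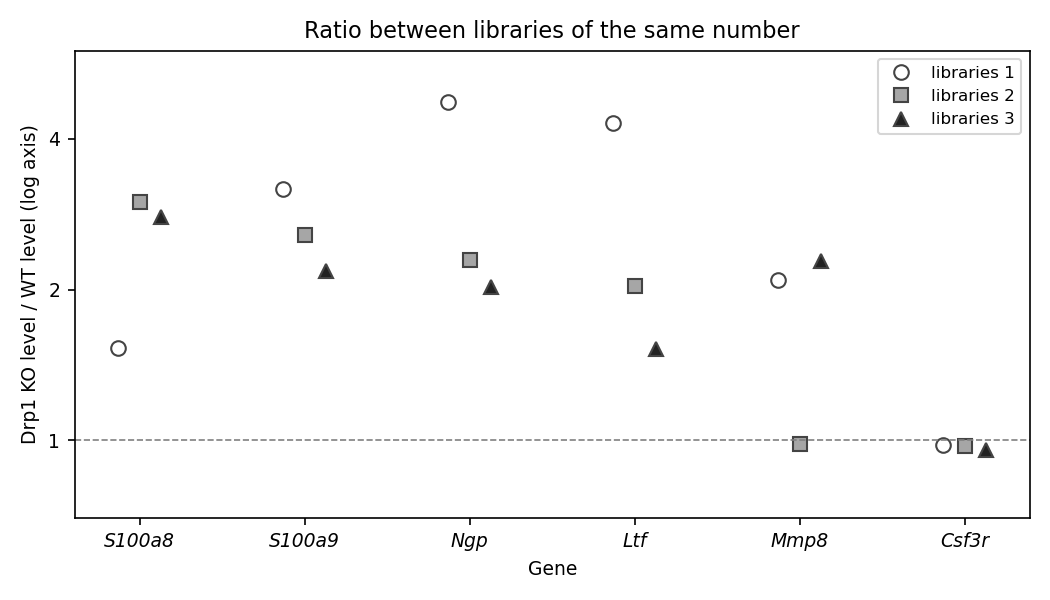
Ratio of the Drp1 KO level to the WT level in libraries of the same number, on a log axis, for the 6 genes with many counts. S100a8, S100a9, Ngp and Ltf are above 1 in all 3 comparisons, Mmp8 in libraries 1 and 3, and Csf3r lies just under 1 in each.

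The genes of primary granules had few counts. Mpo, encoding myeloperoxidase (ENSMUSG00000009350, chr11:87684407-87695239, plus strand), had 2, 9 and 9 counts in WT and 6, 11 and 17 in Drp1 KO. Prtn3, encoding proteinase 3 (ENSMUSG00000057729, chr10:79710310-79719008, plus strand), had 3, 2 and 2 counts in WT and 6, 2 and 3 in Drp1 KO. Most of its Drp1 KO counts were assigned to a retained-intron transcript, with 4.38, 1.60 and 3 estimated counts, and 0 in WT. The canonical coding transcript of Prtn3 had 2, 2 and 0 in WT and 1.62, 0 and 0 in Drp1 KO. Elane, encoding neutrophil elastase, lies 3073 bases from Prtn3 (ENSMUSG00000020125, chr10:79722081-79724051, plus strand) and had 1, 2 and 0 counts in WT and 0, 1 and 4 in Drp1 KO. The groups overlapped for all of these genes. The ratio of Drp1 KO to WT from summed counts was 1.54 for Mpo (exact 95% interval 0.862 to 2.83), 1.43 for Prtn3 (0.504 to 4.34) and 1.51 for Elane (0.294 to 9.73). Each interval includes 1 and covers counting error only, so a difference was not detectable at this depth. The fitted log2 fold change was 0.61 (SE 0.580) for Mpo and 0.55 (SE 0.834) for Prtn3, and that of Prtn3 was -0.22 without Drp1 KO library 1.

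Csf3r, encoding the receptor for G-CSF, the cytokine that drives neutrophil production (ENSMUSG00000028859, chr4:125918262-125938236, plus strand), was at the same level in all libraries. It had 45.2, 47.0 and 43.6 CPM in WT and 44.2, 45.7 and 41.7 in Drp1 KO, with a log2 fold change of -0.05 (SE 0.0924). The groups overlapped, and the highest level was 1.13 times the lowest. Ligand transcripts were next to absent, since Csf3 itself was found in WT library 1 alone, at 0.0431 CPM.

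Beneath the level total, the estimated transcripts of Csf3r were shared out differently in the groups. A transcript that starts at 125918319 on chromosome 4 (ENSMUST00000106162, the canonical one) and another that starts downstream at 125921085 (ENSMUST00000030673) share the same annotated coding sequence and differ in their first exons. The downstream-start transcript took 13.7%, 15.0% and 20.5% of the Csf3r counts in WT libraries and 36.9%, 41.0% and 36.2% in Drp1 KO libraries. The canonical transcript took 79.7%, 76.0% and 69.1% in WT and 61.0%, 52.6% and 59.6% in Drp1 KO. Neither range overlapped between the groups. Another transcript, of 921 bases with no coding sequence defined (ENSMUST00000140426) had 39.6, 49.5 and 57.6 estimated counts in WT and none in Drp1 KO, and one of 696 bases (ENSMUST00000153968) took 2.05% to 6.36% of the counts in either group. These are kallisto's estimates from reads shared between transcripts. They were not tested, and short-read estimates of overlapping transcripts are less certain than gene totals. Because transcript lengths differ, the Csf3r total in TPM was 24.0 ± 2.33 in WT and 19.9 ± 2.59 in Drp1 KO (SD, n = 3 each), and the log2 fold change with length-scaled counts was -0.18.

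**Figure D3:**
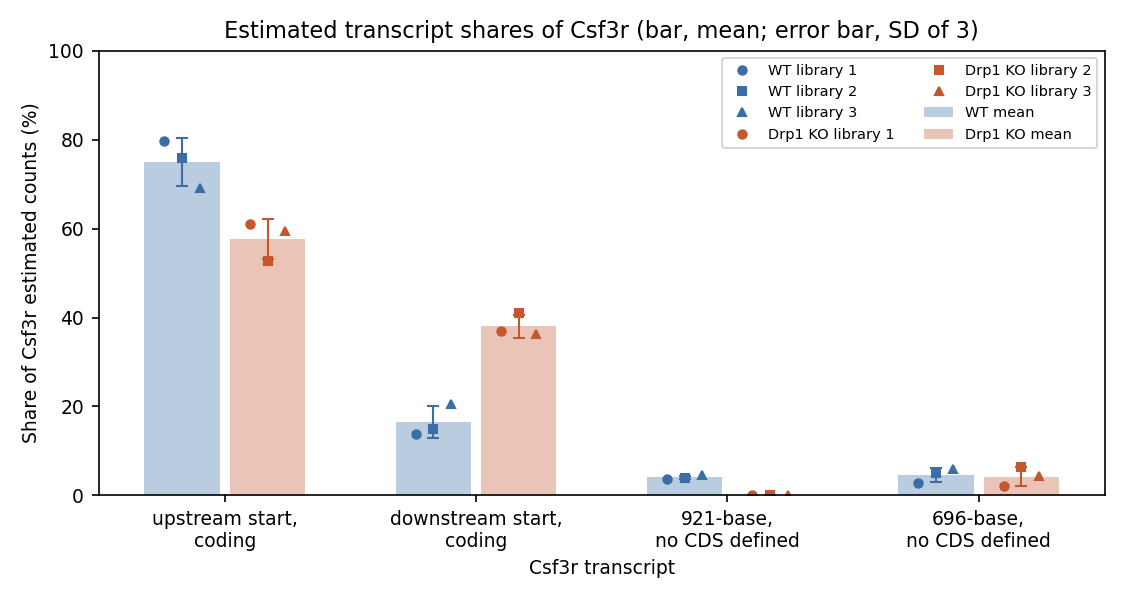
Share of the estimated Csf3r counts assigned to each of 4 transcripts, in percent, by library (points), with the group mean (bars) and SD of 3 libraries (error bars). The downstream-start transcript takes 16.4% ± 3.62 in WT and 38.1% ± 2.58 in Drp1 KO, and the 921-base transcript is at 0 in every Drp1 KO library.

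Per transcript length, the order of the WT levels was Mmp8 at 55.5 ± 5.84 TPM, S100a9 at 49.1 ± 27.2, Csf3r at 24.0 ± 2.33, S100a8 at 17.3 ± 6.66, Ltf at 3.62 ± 1.43, Ngp at 2.77 ± 1.53 and then Prtn3, Camp, Mpo and Elane, each under 0.2 TPM (SD, n = 3). The spreads of the neighbours Mmp8 and S100a9, S100a9 and Csf3r, Csf3r and S100a8, and Ltf and Ngp overlapped. Within each WT library Csf3r was above S100a8 and Ltf above Ngp, while the order of the other neighbours varied. The Ltf total, however, rested mostly on short transcripts with few estimated counts. Its canonical coding transcript had 0.110, 0.732 and 0.838 TPM in WT, below Ngp in each library (1.06, 3.99 and 3.25). Of the tested genes, 86.5% had a lower WT level than Mmp8, 69.6% than S100a8 and 44.7% than Ngp. In Drp1 KO libraries the order began with S100a9 at 107 ± 48.8 TPM, followed by Mmp8 at 95.5 ± 42.7 and S100a8 at 43.2 ± 25.2, with overlapping spreads.

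Across the 9 genes tested, 8 had a positive and 1 a negative log2 fold change, and the median was 1.03. The median over all 18506 genes was 0.0046, and 50.6% of them were positive. The WT libraries of Prtn3 were all at or under 3 counts. Its log2 fold change lay under the median both as fitted and at its bound (0.311), so setting it to the bound could not move the median. Because the genes were chosen with this contrast known, their counts of calls carry no weight of their own, and are set out only beside those of all genes. At an edgeR adjusted p under 0.05, 0 of the 9 were called, where 3.36% of all genes were. At an unadjusted p under 0.05, 5 of the 9 were called (S100a8, S100a9, Ngp, Ltf and Mmp8), where 16.4% of all genes were. DESeq2 called 2 of the 9, S100a8 and Ngp, and 6.24% of all genes. With the replicate number as a block, edgeR called 5 of the 9, the same genes as at the unadjusted p, and 12.0% of all genes. Every Drp1 KO library was above every WT library for 2 of the 9, Ngp and Ltf, and for 11.7% of all genes. The Drp1 KO library was above the WT library of its number in all 3 numbers for 5 of the 9 (S100a8, S100a9, Ngp, Ltf and Camp) and for 23.7% of all genes.

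Other neutrophil genes moved in both directions. Of 40 other genes of neutrophils and their precursors, 39 were in the annotation and 32 were tested. At an adjusted p under 0.05 (edgeR), 2 were higher and 2 lower in Drp1 KO. Of all 18506 genes, 424 were higher and 197 lower in the same fit, and 16.4% had an unadjusted p under 0.05 in either direction. The calls of each list below stand beside the same values. The median log2 fold change of the 32 was 0.24, with 21 positive and 11 negative. The 2 that rose were Slfn4, an interferon-inducible Schlafen gene, with a log2 fold change of 2.92 (SE 0.311, adjusted p = 0.000839), and Ifitm6, of the interferon-induced transmembrane family, with 2.14 (SE 0.406, adjusted p = 0.0205). Slfn4 had 0.776, 0.637 and 0.477 CPM in WT and 3.59, 6.45 and 4.20 in Drp1 KO. The call of Ifitm6 was lost without WT library 2 (adjusted p = 0.109), WT library 3 (0.104) or Drp1 KO library 2 (0.0720).

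The 2 that fell encode further metalloproteases of neutrophils. Mmp25, the leukocyte membrane-bound metalloprotease, had 5.17, 3.19 and 4.46 CPM in WT and 0.999, 1.13 and 1.07 in Drp1 KO, a log2 fold change of -1.99 (SE 0.251, adjusted p = 0.00229). Mmp9, the gelatinase of tertiary granules, had 4.49, 7.83 and 3.68 CPM in WT and 1.09, 1.34 and 2.42 in Drp1 KO, a log2 fold change of -1.70 (SE 0.357, adjusted p = 0.0311). The groups did not overlap for either gene. Mmp8, of the same enzyme family, had a log2 fold change of the opposite sign. Mmp9 no longer passed once WT library 2 was left out (adjusted p = 0.150), nor once Drp1 KO library 1 (0.0510) or 2 (0.161) was, nor with length-scaled counts (0.108).

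With the replicate block 7 of the 32 were higher, namely Lcn2, Chil3, Padi4, Ifitm6, Anxa1, Clec4e and Slfn4, and the 2 metalloprotease genes were lower. Of all 18506 genes, 1246 were higher and 966 lower with the block, which also stand beside the block calls of the lists below. Lcn2, encoding lipocalin 2 of secondary granules, had 1.08, 1.57 and 1.57 CPM in WT and 1.86, 4.03 and 3.40 in Drp1 KO (log2 fold change 1.14, SE 0.315). Its adjusted p was 0.0870 without the block and 0.00602 with it, and ran from 0.00286 to 0.328 over the alternatives. Chil3, encoding the chitinase-like protein Ym1, had 1.42, 3.94 and 4.50 CPM in WT and 2.95, 6.54 and 7.79 in Drp1 KO (log2 fold change 0.81, SE 0.414). Its adjusted p was 0.377 without the block and 0.00590 with it, with a range of 0.00590 to 0.678. Both genes were lowest in library 1 of each group, as calprotectin was. Padi4, named after its values were seen, encodes the histone-citrullinating enzyme of extracellular traps and had 3.79, 2.44 and 3.71 CPM in WT and 7.26, 2.72 and 6.38 in Drp1 KO, with libraries 1 and 3 high as for Mmp8 (adjusted p = 0.335 without the block, 0.0384 with it, 0.0384 to 0.678 over the alternatives).

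Among the most abundant of the genes that did not pass, Anxa1, encoding annexin A1, had a log2 fold change of 0.55 (adjusted p = 0.0798, and 0.00229 to 0.260 over the alternatives) and Cybb, the gp91 subunit of the NADPH oxidase, 0.27 (adjusted p = 0.336). Clec4d and Clec4e, receptors of the C-type lectin family, had -0.14 (adjusted p = 0.647) and 0.53 (0.222). All of these are also expressed by macrophages. The summed level of the 39 genes, which these 4 dominated, was 3539 to 4261 CPM in WT and 4279 to 5041 in Drp1 KO. Besides Ly6g, Prss57 and Stfa1 had no count in any library, and Retnlg, Stfa2 and Stfa2l1 were listed at 0 in most.

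**Figure D4:**
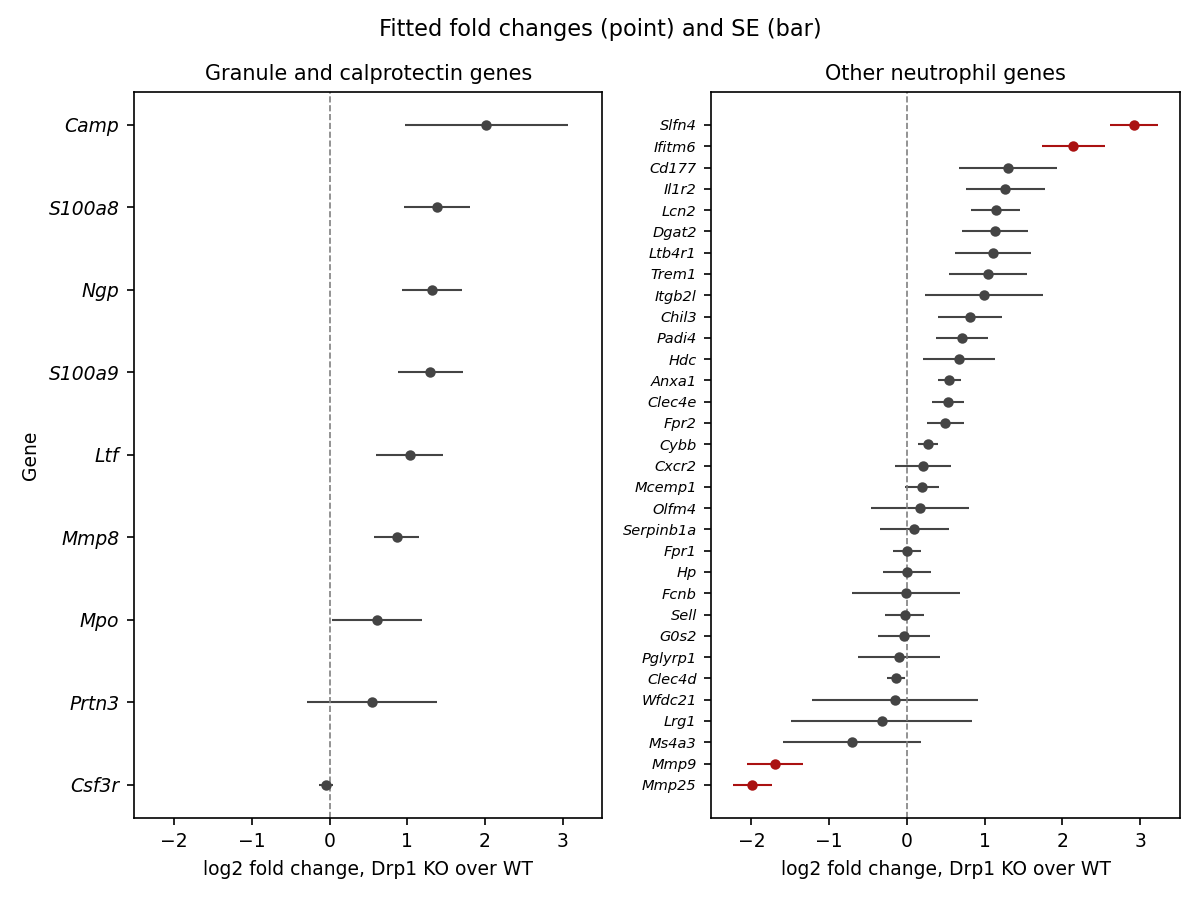
Fitted log2 fold change of Drp1 KO over WT (points) with its SE (bars) for the 9 tested granule and calprotectin genes (left, shown as a description) and the 32 other neutrophil genes tested (right). Red marks an edgeR adjusted p under 0.05 on the right, namely Slfn4 and Ifitm6 above 0 and Mmp9 and Mmp25 below it.

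A list of 9 transcription factors of granulocyte development and the clock gene Per3 was read next. All 10 genes were tested, and 0 were higher and 1, Per3, was lower at an adjusted p under 0.05 (edgeR). At an unadjusted p under 0.05, and also with the replicate block, 0 were higher and 2, Per3 and Cebpa, were lower. The median log2 fold change was -0.08. Cebpe, encoding the factor that drives secondary granule genes, had 0.341 to 0.474 CPM in WT and 0.363 to 0.368 in Drp1 KO. Gfi1, a repressor required for neutrophils, had 0.102 to 0.690 and 0.215 to 0.863 CPM. Gfi1 had 3 to 19 counts a library. Both were named after their values were seen. Among the abundant factors the log2 fold change was -0.07 for Cebpb (adjusted p = 0.959), 0.07 for Spi1, encoding PU.1 (0.857), 0.12 for Runx1 (0.624) and -0.37 for Cebpa (0.249, and 0.0228 with the replicate block, range 0.00631 to 0.518). Per3 had a log2 fold change of -0.47 (SE 0.107, adjusted p = 0.0432). Its call was lost whichever single library was left out (adjusted p = 0.0526 to 0.196).

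Receptors, partners and relatives of calprotectin changed in a few cases. Of 17 genes 13 were tested, 2 were higher and 0 lower at an adjusted p under 0.05, and the median was 0.02. At an unadjusted p under 0.05, and with the replicate block at an adjusted p under 0.05, 3 were higher and 2 lower. S100a6, of the same chromosome 3 cluster, had 24.5, 24.1 and 29.9 CPM in WT and 58.1, 38.1 and 70.3 in Drp1 KO (log2 fold change 1.08, SE 0.197, adjusted p = 0.0163). It was lowest of its group in Drp1 KO library 2, like Mmp8, and the call was lost without WT library 2 (adjusted p = 0.113). Cd69, encoding an activation receptor that binds calprotectin, had a log2 fold change of 1.31 (SE 0.257, adjusted p = 0.0228), and leaving out WT library 3 (adjusted p = 0.0828) or either of the Drp1 KO libraries 2 (0.110) and 3 (0.0614) ended the call. Of the receptor Tlr4 there were 88.7 to 104 CPM in WT and 98.8 to 105 in Drp1 KO (log2 fold change 0.05, SE 0.0951, adjusted p = 0.874), and of Ager, encoding RAGE, 0.182 to 0.375 CPM over all libraries. The scavenger receptor Cd36 had 0.02 (adjusted p = 0.979), S100a1 -0.15 (0.512), S100a10 0.50 (0.142, and 0.0185 with the block) and Bsg, encoding the S100A9 receptor basigin, -0.27 (0.257, and 0.0480 with the block).

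Of 18 genes of protease inhibitors, not only of neutrophil granule proteases, 13 were tested. At an adjusted p under 0.05, 2 were higher and 0 lower (edgeR, and likewise at an unadjusted p under 0.05). The median log2 fold change was 0.22. Serpinb6b had 4.83 to 6.30 CPM in WT and 9.94 to 14.3 in Drp1 KO (log2 fold change 1.05, SE 0.178, adjusted p = 0.0113), and Serpinb9, an intracellular inhibitor of granzyme B, 17.8 to 22.7 and 29.4 to 40.1 CPM (0.78, SE 0.142, adjusted p = 0.0159). The groups did not overlap for either gene. The adjusted p of Serpinb6b was 0.0552 without WT library 2 and without WT library 3, and that of Serpinb9 was 0.0586 to 0.0850 when library 2 or 3 of either group was left out. The abundant inhibitors had log2 fold changes of -0.20 (Serpinb6a, adjusted p = 0.327), 0.04 (Cstb, 0.908), 0.22 (Cst3, 0.417) and 0.13 (Wfdc17, 0.709). Serpinb1a, the main inhibitor of elastase and proteinase 3 in neutrophils, had 0.367 to 0.736 CPM over all libraries.

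In a list of 15 genes of G-CSF and related signalling, 14 were tested and 0 were called in either direction (edgeR). At an unadjusted p under 0.05, 3 were higher and 0 lower, and the median log2 fold change was 0.09. Csf3r itself is among the 15, as are Csf3, Csf2, Csf2ra, Csf2rb and Csf2rb2, so the list is not confined to genes downstream of Csf3r. With the replicate block 3 were higher, among them Socs3 and Jak2, both named after their values were seen. Socs3, the feedback inhibitor of G-CSF receptor signalling, had 3.32, 4.31 and 2.52 CPM in WT and 14.1, 5.04 and 6.47 in Drp1 KO, highest in Drp1 KO library 1 (log2 fold change 1.32, SE 0.363, adjusted p = 0.0863 without and 0.0162 with the block, 0.00394 to 0.287 over the alternatives). Jak2, the kinase bound to the receptor, had 0.26 (SE 0.0895, adjusted p = 0.172 without and 0.0460 with the block, up to 0.432 over the alternatives). Csf2rb had -0.15 (adjusted p = 0.65), Lyn 0.13 (0.583), Jak1 -0.11 (0.716) and Csf2ra 0.05 (0.925).

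By a fixed measure of likeness, Pearson r of log2(CPM + 0.5) over the 6 libraries with the mean profile of S100a8 and S100a9, 628 genes with at least 1 CPM on average and an SD of at least 0.5 were ranked. The 10 genes most like calprotectin included Gpr171 (r = 0.982), Chil3 (0.969), Lcn2 (0.959), Ms4a4b (0.958), Or10ab5 (0.956), Ifi214 (0.955), H2ac7 (0.948), Tnfsf10 (0.938) and Samd9l (0.937). Chil3 and Lcn2 are known neutrophil genes, and Ifi214, Tnfsf10 and Samd9l are known as interferon-inducible. Samd9l had 128, 150 and 157 CPM in WT and 196, 301 and 347 in Drp1 KO. An r over 0.9 was found for 26 of the 628 genes. With 6 points and 2 groups such values are a description, and the points share libraries, scaling and the genotype.

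Genes beside the 10 in the genome were read as well. Of 16 nearest protein-coding neighbours that are not among the 10, 13 were tested and 1, Grik3, was called, compared with 3.36% of all genes. Grik3, a glutamate receptor gene 310296 bases from Csf3r, had a log2 fold change of 1.52 (SE 0.331, adjusted p = 0.0356, 0.00153 to 0.149 over the alternatives). Its call was lost with length-scaled counts (adjusted p = 0.0510) and without any single library except Drp1 KO library 1. Ptpn23 and Klhl18, on either side of Ngp, had 0.04 (SE 0.127) and -0.38 (SE 0.122), and Nme6 and Cdc25a, on either side of Camp, -0.12 (SE 0.235) and -0.03 (SE 0.168). Mmp27, 2910 bases from Mmp8 in the metalloprotease cluster, had 28.4 ± 2.18 CPM in WT and 34.4 ± 3.48 in Drp1 KO (SD, n = 3 each, log2 fold change 0.28, adjusted p = 0.254). With the replicate block 3 of the 13 were called, Grik3, Klhl18 and Ccrl2, beside 12.0% of all genes.

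Markers of other cells were read in the same libraries. In the macrophage list of 12 genes 1 was higher and 3 lower (5 lower with the replicate block), with a summed level of 15060 to 16560 CPM in WT and 13250 to 15630 in Drp1 KO. Fcgr1, encoding the Fc receptor CD64, rose (log2 fold change 1.34, SE 0.111, adjusted p = 0.000322), and Mertk, an efferocytosis receptor, Csf1r, the M-CSF receptor, and Mrc1, encoding CD206, fell by 0.52, 0.52 and 0.42 on the log2 scale (adjusted p = 0.0236, 0.0340 and 0.0408). Leaving out 1 library ended the last 3 calls, for Mertk library 2 or 3 of either group (adjusted p up to 0.118), and for Csf1r (up to 0.133) and Mrc1 (up to 0.163) any library except Drp1 KO library 1. Length-scaled counts also ended the calls of Csf1r (adjusted p = 0.210) and Mrc1 (0.0627). Cd68 had -0.02 (adjusted p = 0.979) and Itgam, encoding CD11b, 0.12 (0.793).

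In the list of 14 progenitor and monocyte genes 13 were tested, 0 were higher (edgeR, 2 at an unadjusted p under 0.05 and 2 with the replicate block) and 1 was lower, F13a1, encoding coagulation factor XIII A of monocytes and alternatively activated macrophages, at -1.51 (SE 0.116, adjusted p = 0.000276). The summed level was 374 to 480 CPM in WT and 378 to 457 in Drp1 KO. Kit had 2.03 to 4.27 CPM in WT and 3.33 to 3.96 in Drp1 KO, and Ccr2 had a log2 fold change of 0.33 (adjusted p = 0.614). Ly6c2, a marker of inflammatory monocytes, had 0, 0.262 and 0.307 CPM in WT and 0.363, 0.916 and 0.982 in Drp1 KO, again lowest in libraries 1 (adjusted p = 0.207 without and 0.0347 with the block, 0.0245 to 0.458 over the alternatives). Irf8 had 0.02 (adjusted p = 0.988), Cdk6 0.24 (0.312) and Klf4 0.62 (0.204, and 0.00247 with the block, range 0.00247 to 0.528).

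Of the 10 lymphoid genes 7 were tested, 1 was higher and 0 lower (edgeR, 2 and 0 at an unadjusted p under 0.05), and the summed level was 12.1 to 14.7 CPM in WT and 21.5 to 29.4 in Drp1 KO. Nearly all of that difference was Igkc, the constant region of the immunoglobulin kappa chain, with 1.90, 2.02 and 1.53 CPM in WT and 14.4, 8.52 and 16.1 in Drp1 KO (log2 fold change 2.84, SE 0.257, adjusted p = 0.000399). Of 11 erythroid and megakaryocyte genes 5 were tested and 0 called in either direction, with 0 at an unadjusted p under 0.05 by edgeR, and the globin genes had no count in any library. Their summed level was 46.1 to 71.4 CPM in WT and 46.7 to 76.1 in Drp1 KO, nearly all of it Pf4 (log2 fold change 0.15, adjusted p = 0.825), which macrophages also express. Of 12 eosinophil, basophil and mast cell genes 4 were tested and 0 called, again with 0 at an unadjusted p under 0.05, at a summed level of 2.76 to 4.67 CPM in WT and 3.22 to 4.42 in Drp1 KO. Ear1, Ear6, Mcpt8 and Fcer1a had no count in any library, and Epx, Prg2 and Prg3 had no count in WT and at most 1 count in a Drp1 KO library. DESeq2 called none of these in either list, and of the other lists with 0 calls in a direction it called 1 gene, among those of G-CSF signalling. The part of residual marrow cells in the levels of the granule genes was not tested.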

How the data were processed

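RNA from BMDMs after 8 hours of HSS (2.1% oxygen in the sample labels) was measured in 6 libraries, 3 of each genotype. Reads were quantified by the authors with kallisto 0.46.1 against Ensembl GRCm39 cDNA, and the submitters' processing notes also name DESeq2 1.44.0. The deposited estimated counts are per transcript, not whole and not scaled between libraries, and the deposited TPM values are divided by transcript length and scaled to one common sum per library. Effective and annotated lengths were read only for the length-scaled alternative. Whether kallisto corrected for sequence bias is not given in the sources used here.

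Of 116873 transcripts, 99.4% matched the GENCODE annotation of GRCm39, and the others, left out, held no more than 0.575% of the counts. Counts were summed per gene and rounded. Genes with at least 10 counts in total were fitted with edgeR 4.0.16 (R 4.3.3, TMM, quasi-likelihood test, no covariate), and p-values were adjusted by Benjamini-Hochberg over all genes tested. SE is the log2 fold change divided by the root of the test's F. DESeq2 1.42.0 was an alternative. The fit was tested on simulated data first. The floor was 3 counts. Exact intervals (95%, binomial, SciPy 1.17.1) cover counting error only.

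The 10 genes, the other gene lists and the tests were chosen with earlier results of these data known. Named were the 10 genes, in each other list up to 6 called genes and the 4 most abundant others, the 10 genes most like calprotectin, and the nearest coding neighbours. Genes named outside this rule are said to be so or illustrate a marker list. One listed symbol was not in the annotation. Some genes these rules name are not reported here.

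WT and Drp1 KO libraries share the numbers 1 to 3. Deviations from the group mean correlated at 0.539, 0.218 and 0.352 between libraries 1, 2 and 3 (12248 genes), all above 0.1, and on this ground, not on any statement by the study, equal numbers were treated as pairs. WT library 2 correlated more with Drp1 KO library 3 (0.339) than with Drp1 KO library 2, so the numbers 2 and 3 were not told apart by this. No 2 libraries agreed within sampling noise.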

Additional observations from a re-analysis of the deposited data

How the results depend on the processing

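The log2 fold change of S100a8, S100a9, Ngp, Ltf and Mmp8 was positive in all 15 alternatives, and that of Csf3r negative in all 15. It ran from 1.09 to 1.75 for S100a8, 0.93 to 1.62 for S100a9, 0.95 to 1.68 for Ngp, 0.63 to 1.31 for Ltf and 0.59 to 1.20 for Mmp8. Camp ran from 0.88 to 3.69 and Mpo from 0.25 to 0.88 over 14 alternatives, and Prtn3 from -0.22 to 0.93 over 12. The median over the genes tested ran from 0.93 to 1.31 with 1 library left out. Under filterByExpr 6 of the 10 were left, with a median of 1.15.

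Of all genes, 621 were called (424 higher, 197 lower), 1065 with a filter of 1 count, 1155 with DESeq2 (663 higher, 492 lower), 2212 with the replicate block, and 181 to 904 with 1 library left out. Without libraries 1 of both groups, alternatives added after seeing the data, 1880 were called, and 2769 with the replicate block. Of the other neutrophil genes, 4 were higher with the filter of 1 count and with DESeq2, 7 with the replicate block, 5 without libraries 1 of both groups and 7 with both changes, and 1 to 4 with 1 library left out. With length-scaled counts 1 was lower, and 1 to 2 were with 1 library left out. Over all genes 181, 217, 268 and 348 were called without WT library 2, WT library 3, Drp1 KO library 2 and Drp1 KO library 3. Of the other neutrophil genes, 1 was higher when either WT library 2, WT library 3 or else Drp1 KO library 2 was omitted, and 4 were without Drp1 KO library 1, and 1 was lower without WT library 2 or Drp1 KO libraries 1 or 2. The causes were not tested. Of 66 other named genes tested, 37 kept their side of the threshold in each alternative that gave a value, 11 lost a call and 18 gained one in at least 1, and 0 reversed. At these depths the genes of primary granules could not be compared beyond their counting intervals.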
